A study of Mus musculus with 8 samples.

Results

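Collagen chains are described here across 8 RNA-seq libraries of mouse kidney cells. A gene was taken when its symbol had the form Col, a number, the letter a and a number, and when it had 10 or more counts in at least 2 libraries. Such a symbol was borne by 44 of the 55304 genes in the deposited count table, and 38 of these met the count minimum. The 38 were 11 fibrillar chains, 8 basement membrane chains (type IV, XV and XVIII) and 19 other chains, and all 38 also passed the count filter of the statistical test. Just inside the minimum, Col2a1 reached it in 2 libraries and Col8a2 in 3. Just outside, Col19a1 and Col6a4 reached it in 1 library each, with at most 13 and 11 counts. Col22a1, Col9a2, Col6a6 and Col9a1 never did, with at most 7, 5, 3 and 1 counts.

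By the labels the cells had been freshly isolated from kidney as those positive for DBA, the Dolichos biflorus lectin, which marks the collecting duct in mice. The extract protocol also mentions whole kidney. The cells came from ADPKD mice given 666-15, ADPKD mice given vehicle (DMSO), WT mice given 666-15 and WT mice given vehicle, with 2 libraries in each of these 4 groups. ADPKD, autosomal dominant polycystic kidney disease, is a disorder in which kidney tubules widen into cysts, and 666-15 is an inhibitor of the transcription factor CREB. The dose was 5 mg/kg once daily for 5 days followed by 2 days of rest, from postnatal day 11 and for 3 weeks, and the agent was given to neither vehicle group. The labels name neither the altered gene of the ADPKD mice nor how it was altered, nor the age at collection, nor whether both libraries in a group are from different animals. The p-values therefore measure only the spread between these libraries. It may be technical, except in the 666-15-treated WT group, whose libraries differ in sex.

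Collagens are secreted proteins in which alpha chains wind into a triple helix. Fibrillar collagens, such as types I, III and V, pack into the fibres of connective tissue and are made mainly by fibroblasts and related stromal cells. Type IV collagen forms the sheet-like network of basement membranes, on which kidney tubules, capillaries and glomeruli rest. In the kidney the network of Col4a1 and Col4a2 is found in most basement membranes, that of Col4a3, Col4a4 and Col4a5 in the glomerular and some tubular ones, and mutations in COL4A3, COL4A4 or COL4A5 cause Alport syndrome in humans. Types XV and XVIII are proteoglycan-like collagens at basement membranes, and the tail of type XVIII releases the fragment endostatin. Polycystic kidneys are known for thickened tubular basement membranes and for interstitial fibrosis.

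Total counts per library ranged from 15108793 to 19702638, and the 38 chains together held 34925 to 75920 counts. Marker genes of principal cells, the main cell of the collecting duct, were present in every group. Their summed share of counts was 0.193% and 0.228% in 666-15-treated ADPKD cells, 0.187% and 0.152% in vehicle-treated ADPKD cells, 0.602% and 0.609% in 666-15-treated WT cells, and 0.109% and 0.148% in vehicle-treated WT cells. Markers of the proximal tubule, which DBA is not used to enrich, were at 0.0353% and 0.0368%, 0.0043% and 0.00578%, 0.546% and 0.472%, and 1.44% and 1.21% in the same order of groups, so that the vehicle-treated WT cells held more proximal tubule than principal cell marker RNA. In such bulk samples fewer cells of a type and less RNA per cell cannot be told apart. Vehicle-treated ADPKD replicate 2 had 0.0713% of its counts in 14 markers of fibroblasts and stroma, against 0.0398% in replicate 1. In the group of 666-15-treated WT cells replicate 2 was female, with 17688 counts of Xist, whereas the other 7 libraries had at most 8. The libraries of that WT group are therefore from different animals. Col4a5 and Col4a6 lie on the X chromosome, and whether sex bears on these or on any other chain was not tested.

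Basement membrane chains made up most of the collagen RNA in every library, and their part was smaller in ADPKD than in WT cells. Counts were divided by transcript length so that chains could be compared with each other. On this scale basement membrane chains held 77.8% and 77.9% of collagen RNA in 666-15-treated ADPKD cells and 73.8% and 71.8% in vehicle-treated ADPKD cells, against 86.5% and 87.2% in 666-15-treated WT cells and 89.5% and 89.5% in vehicle-treated WT cells. Fibrillar chains held 14.4% and 14.3%, 17.9% and 18.5%, 5.36% and 4.83%, and 6.52% and 6.46% in the same order. The other chains held 7.82% and 7.81%, 8.24% and 9.80%, 8.10% and 8.01%, and 3.93% and 4.02%. The libraries of the 2 genotypes did not overlap in the share of fibrillar or of basement membrane chains. The shares are parts of a whole, so that 1 class is lower where another is higher. All collagen counts came to 0.237% and 0.225% of the library in 666-15-treated ADPKD cells, 0.266% and 0.350% in vehicle-treated ADPKD cells, 0.375% and 0.325% in 666-15-treated WT cells, and 0.400% and 0.443% in vehicle-treated WT cells.

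**Figure D1:**
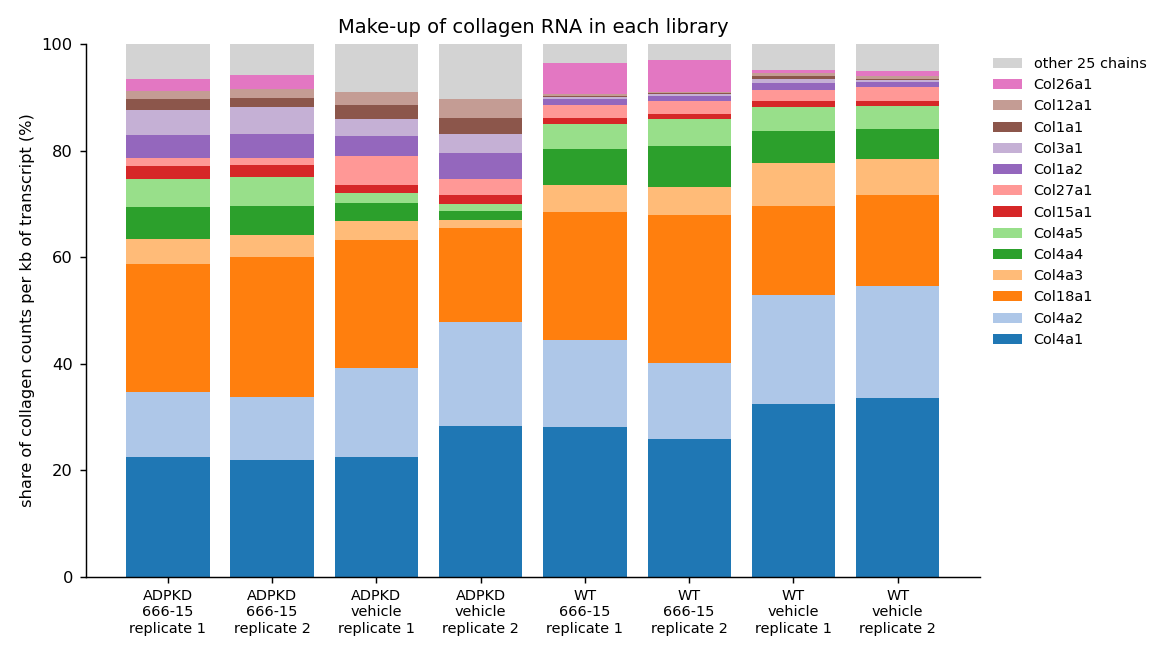
Share of collagen counts per kb of transcript (%, y axis) taken by each of 13 chains and by the other 25 chains together in each of the 8 libraries (x axis). Basement membrane chains, at the bottom of the stacks except for Col4a6 among the other chains, fill 71.8% to 77.9% of the ADPKD libraries and 86.5% to 89.5% of the WT libraries.

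Col4a1, Col4a2 and Col18a1 were the 3 chains with the highest level per length in each group. In 666-15-treated ADPKD cells the mean level per length was 93.6 CPM per kb for Col18a1, 82.3 for Col4a1 and 44.8 for Col4a2, where CPM is the count relative to the TMM-scaled library size. In vehicle-treated ADPKD cells Col4a1 stood first with 125 CPM per kb, followed by Col18a1 with 99 and Col4a2 with 88.7. In vehicle-treated WT cells the order was Col4a1 with 196, Col4a2 with 124 and Col18a1 with 99.9. The next chain in the order differed between groups. It was Col4a4 with 21.3 CPM per kb in 666-15-treated ADPKD cells, Col1a2 with 21.4 in vehicle-treated ADPKD cells, Col4a4 with 38.7 in 666-15-treated WT cells and Col4a3 with 43.8 in vehicle-treated WT cells. Several neighbours in these orders lay within the spread of their libraries, such as Col4a1 and Col18a1 in 666-15-treated WT cells (147 and 139.7 CPM per kb). The lowest level per length was that of Col6a5 in both ADPKD groups, with 0.0286 CPM per kb with 666-15 and 0.0505 with vehicle. It was that of Col28a1 in 666-15-treated WT cells, where both libraries had 0 counts, and that of Col8a2 in vehicle-treated WT cells, with 0.0136 CPM per kb.

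**Figure D2:**
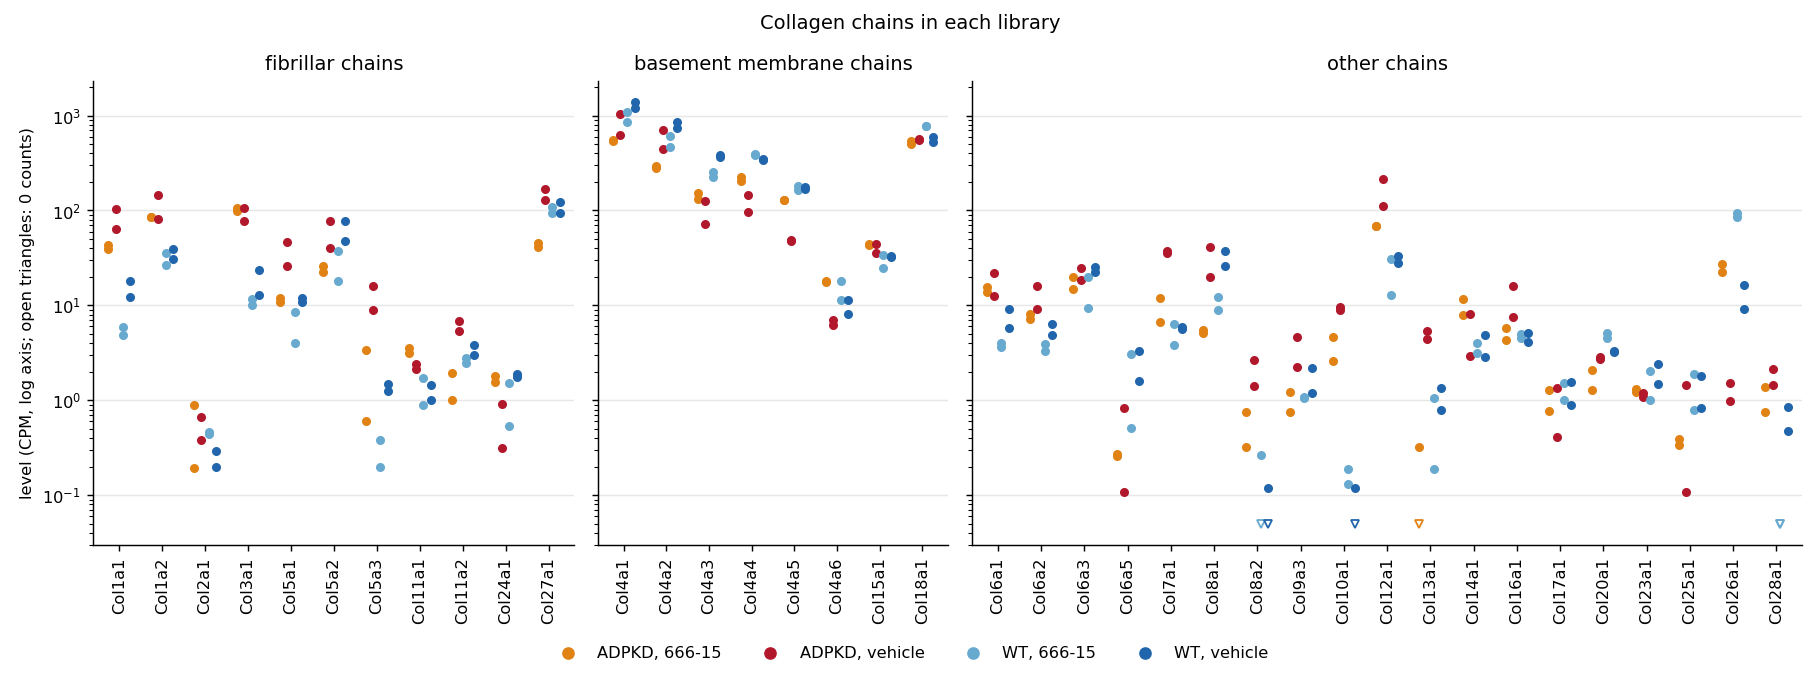
Level of each of the 38 chains (CPM, logarithmic y axis) in every library, as 1 point per library in the order of groups given in the legend, with open triangles for libraries at 0 counts. Col4a1, Col4a2 and Col18a1 have the highest group means, and Col8a2, Col10a1, Col13a1 and Col28a1 include libraries at 0 counts.

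Which chains differ in cells of the cystic kidney was asked with the vehicle-treated ADPKD and WT groups. Of the 38 chains 15 were higher and 7 lower in ADPKD cells, with a median log2 fold change of 0.48 over all 38. By class, 7 of 11 fibrillar chains were higher and 1 lower (median 1.09), none of the 8 basement membrane chains was higher and 4 were lower (median -0.62), and 8 of 19 other chains were higher and 2 lower (median 1.03). Calls were made by edgeR's quasi-likelihood test at a Benjamini-Hochberg adjusted p below 0.05 over the 17440 genes tested. By the same rule 56.4% of all genes were called, 28.8% higher and 27.6% lower, with a median of 0.05, so that the total of 22 chains was near the background. At least 2-fold differences were called for 19 chains, 13 higher and 6 lower, against 33.2% of all genes. With the trend of fold change with transcript GC content removed, 13 chains were higher and 10 lower; collagen transcripts had a median GC content of 55.9%, against 49.6% for all genes tested. Of the 22 calls 12 were made in every fit that left out 1 library.

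Type I and III collagen, the main fibres of scar and connective tissue, were among the chains that rose. Col1a1 (chromosome 11, 94936224 to 94953042 in GRCm38) was at 63.7 and 103 CPM in vehicle-treated ADPKD cells, against 18.2 and 12.2 CPM in vehicle-treated WT cells (means 83.5 ± 27.9 and 15.2 ± 4.25, SD, n = 2 each; log2 fold change with its SE 2.45 ± 0.25, adjusted p = 1.96e-05, as in the parentheses that follow). Its partner in type I collagen, Col1a2 (chromosome 6, 4504814 to 4541544), was at 81.7 and 147 CPM in ADPKD libraries, against 39.6 and 30.5 CPM in WT cells (1.70 ± 0.29, adjusted p = 0.00208). Col3a1, the only chain of type III collagen (chromosome 1, 45311538 to 45349706), was at 77.6 and 107 CPM, against 23.4 and 12.9 CPM in WT cells (2.34 ± 0.27, adjusted p = 0.000134). In each case ADPKD replicate 2 was the higher of the ADPKD libraries, and both lay above both WT libraries. Over the 4 fits that left out 1 library the log2 fold changes were no lower than 2.04, 1.20 and 1.96. The ratio of Col1a1 to Col1a2 per length was 0.703 and 0.633 in ADPKD cells and 0.414 and 0.359 in WT cells.

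Of the type V chains, which set the width of type I fibrils, Col5a1 and Col5a3 rose. Col5a1 was at 26.3 and 46.3 CPM in ADPKD libraries, against 10.8 and 11.9 CPM in WT cells (1.68 ± 0.33, adjusted p = 0.00209). Col5a3 was at 8.97 and 16.1 CPM, against 1.49 and 1.24 CPM (3.19 ± 0.60, adjusted p = 0.00134). Col5a2, whose product combines with that of Col5a1, was at 40.5 and 76.8 CPM, against 47.6 and 77.1 CPM, and its groups overlapped (-0.09 ± 0.48, adjusted p = 0.893). Col27a1, a chain of cartilage and other tissues that forms thin fibrils, had the highest level per length of the fibrillar chains in vehicle-treated WT cells. It was at 169.8 and 128 CPM in ADPKD libraries, against 93.2 and 122 CPM (0.47 ± 0.16, adjusted p = 0.0256). That call was lost without ADPKD replicate 1 (0.24), without WT replicate 1 (0.27), with the 2 groups alone (0.39) and with the GC trend removed (0.23). Col11a2 was at 6.9 and 5.43 CPM, against 2.99 and 3.84 CPM (0.86 ± 0.33, adjusted p = 0.0439), and lost its call under several settings, among them RLE scaling (0.82, adjusted p = 0.054), DESeq2 (0.81, adjusted p = 0.133), and the removal of ADPKD replicate 1 (0.66), of WT replicate 1 (0.66) or 2 (1.02) and of the GC trend (0.45). The fibrillar chain that fell, Col24a1, had 6 and 17 counts in ADPKD libraries, against 38 and 30 counts in WT cells (-1.57 ± 0.61, adjusted p = 0.0422). Its call did not hold with DESeq2, without ADPKD replicate 1 (-0.99) or without either WT replicate (-1.53 and -1.63), and the value was -2.55 without ADPKD replicate 2.

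Among fibroblast markers more were called higher than lower, and among those of smooth muscle, pericytes and mesangium more were called lower. Of the 14 markers of fibroblasts and stroma 7 were higher and 2 lower in vehicle-treated ADPKD cells, or 64.3% called, beside 56.4% of all genes. Their sum was 0.0398% to 0.0713% of counts, against 0.0208% to 0.0248% in vehicle-treated WT cells, and none was at 0 counts in either group. Of 10 tested markers of smooth muscle, pericytes and mesangium 1 was higher and 3 lower. The sums of that list were 0.0375% to 0.0585%, against 0.0436% to 0.0449%. Of 10 endothelial markers 1 was higher and 2 lower, with sums of 0.108% to 0.134%, against 0.137% to 0.159%. Macrophage markers were mostly higher, 6 of 8 with 1 lower. The macrophage sums were 0.0236% to 0.0289% of counts in vehicle-treated ADPKD cells and 0.00809% to 0.0108% in vehicle-treated WT cells. Thy1, a surface protein of fibroblasts, was at 7.11 and 12 CPM in ADPKD libraries, against 1.05 and 0.65 CPM in WT cells (3.47 ± 0.40, adjusted p = 7.79e-06), and Gpc3, a glypican, was lower (-1.34 ± 0.14). The part of these markers in the collagen result was not tested.

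**Figure D3:**
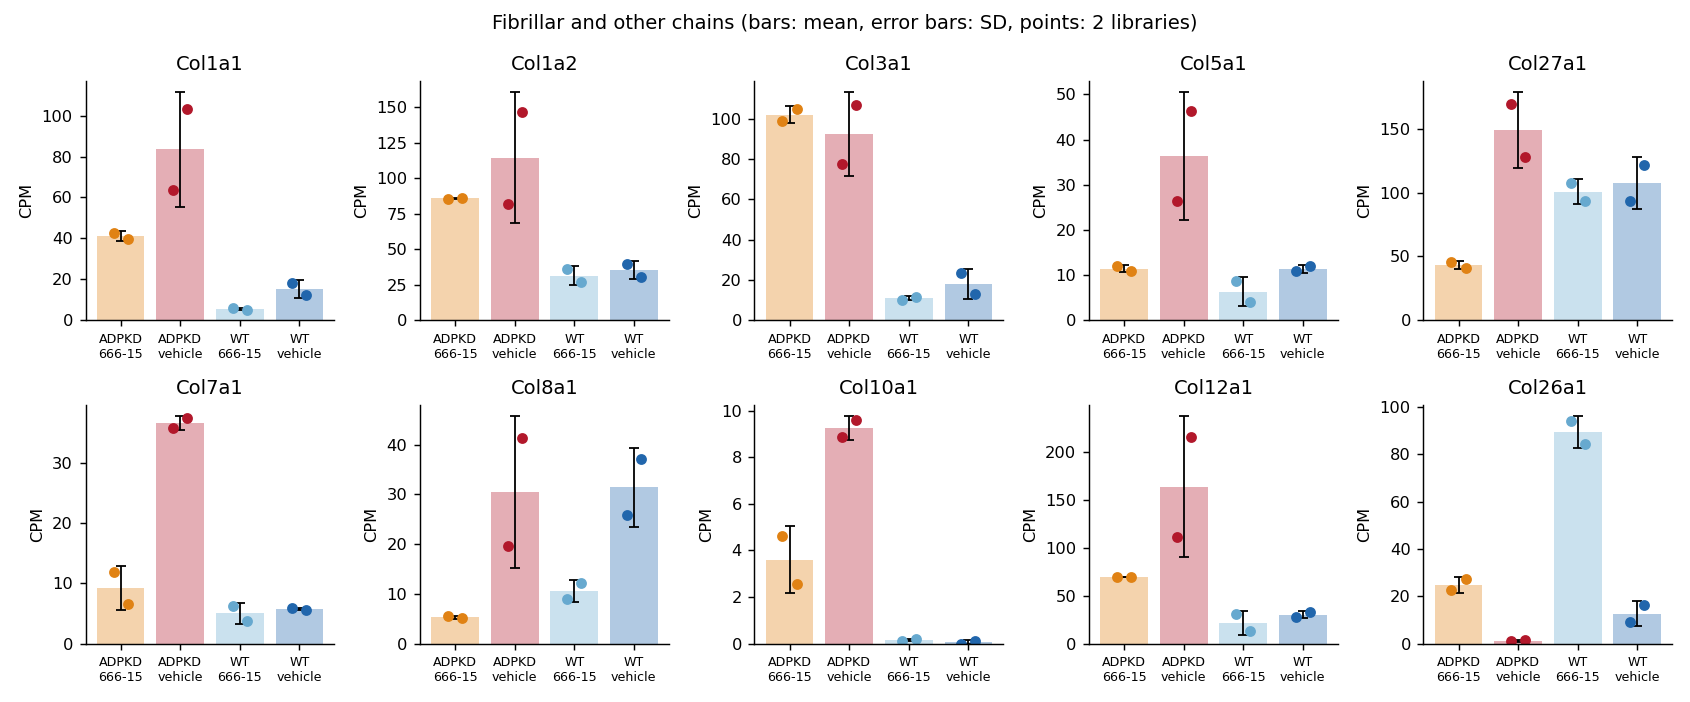
Level (CPM, y axes starting at 0) of 5 fibrillar and 5 other chains in the 4 groups (x axes), with bars for the mean, error bars for the SD and points for the 2 libraries. Col1a1, Col1a2 and Col3a1 stand higher in both ADPKD groups than in the WT groups, and Col26a1 stands higher in each 666-15 group than in the vehicle group of the same genotype.

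The 4 basement membrane chains that fell in vehicle-treated ADPKD cells were all type IV. Col4a5 (chromosome X, 141475385 to 141689234) was at 48.2 and 48.9 CPM in ADPKD libraries, against 167 and 175 CPM in WT cells (means 48.6 ± 0.433 and 171 ± 5.82, SD, n = 2 each; -1.82 ± 0.10, adjusted p = 6.53e-09). Col4a3 (chromosome 1, 82586921 to 82722059) was at 126 and 71.2 CPM, against 386 and 363 CPM (-1.93 ± 0.25, adjusted p = 0.00038), and Col4a4 (chromosome 1, 82448423 to 82586849) at 146 and 96.6 CPM, against 341 and 353 CPM (-1.51 ± 0.16, adjusted p = 1.19e-05). These 3 are the chains of the network altered in Alport syndrome, and each was called lower in every setting tried. Col4a1 (chromosome 8, 11198423 to 11312826) was at 619.5 and 1031 CPM, against 1205 and 1385 CPM (-0.65 ± 0.23, adjusted p = 0.044). The difference of Col4a2 (chromosome 8, 11312805 to 11449287) did not pass: it was at 446 and 698 CPM, against 742 and 853 CPM (-0.48 ± 0.22, adjusted p = 0.0976). Col4a6, the partner of Col4a5 in the basement membranes of the collecting duct and Bowman's capsule (chromosome X, 141165403 to 141474076), was at 6.23 and 6.95 CPM, against 11.5 and 8.21 CPM (-0.59 ± 0.25, adjusted p = 0.0578), and passed as lower under 5 other settings, among them RLE scaling (-0.62, adjusted p = 0.0436), the GC trend removed (-0.60, adjusted p = 0.0426) and no WT replicate 2 (-0.83). Col18a1 and Col15a1 did not pass (-0.01 ± 0.10 and 0.29 ± 0.16).

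The Col4a1 call was lost without ADPKD replicate 1 (-0.34), without either WT replicate (-0.76 and -0.57), and, among other settings, under no low-count filter and in a fit of the 2 groups alone, and Col4a2 passed with DESeq2 (-0.53, adjusted p = 0.00752) and without ADPKD replicate 2 (-0.86). Podocytes, glomerular cells that make the Col4a3, Col4a4 and Col4a5 network, had 6 of 8 markers lower and 2 higher in vehicle-treated ADPKD cells, with sums of 0.0248% to 0.0265% of counts, against 0.0777% to 0.0806% in vehicle-treated WT cells, and no marker at 0 in either group. All markers of the proximal tubule (8 of 8), intercalated cells (6 of 6) and the thick ascending limb (4 of 4) were lower too. Their sums were 0.0043% to 0.00578%, 0.00916% to 0.0117% and 0.0314% to 0.0321% of counts in vehicle-treated ADPKD cells, against 1.21% to 1.44%, 0.0549% to 0.0559% and 0.662% to 0.672% in vehicle-treated WT cells, with none at 0. Principal cell markers went the other way, with 6 higher and 1 lower of 9 tested. Principal cell sums were 0.152% to 0.187% in vehicle-treated ADPKD cells, against 0.109% to 0.148% in vehicle-treated WT cells. The part of all these markers in the lower type IV chains was not tested. Per length, Col4a5 stood to Col4a1 as 0.0788 and 0.048 in vehicle-treated ADPKD cells and as 0.14 and 0.128 in vehicle-treated WT cells. The ratio of Col4a1 to Col4a2, whose products combine, was 1.36 and 1.44 in ADPKD cells and 1.58 and 1.58 in WT cells.

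The 6 type IV genes lie as 3 head-to-head pairs, and the start sites of a pair can share 1 promoter. In GENCODE M21 the first exons of Col4a1 and Col4a2 overlap by 22 bases on opposite strands, the start sites of Col4a3 and Col4a4 are 72 bases apart, and those of Col4a5 and Col4a6 are 1309 bases apart. Windows of 300 bases around RefSeq start sites on GRCm38.p6 are given below 5′ to 3′ on the strand of the named gene, because both members of a pair are read from this stretch or from beside it. Capitals mark the bases shared by both first exons for Col4a1 (chr8:11312777-11313076, minus strand) and the bases between the start sites for Col4a4 (chr1:82586800-82587099, minus strand). In the Col4a5 window (chrX:141475169-141475468, plus strand) they mark CGTCA, a core of the CREB site, and the Col4a6 window (chrX:141474027-141474326, minus strand) has no capitals.
Col4a1: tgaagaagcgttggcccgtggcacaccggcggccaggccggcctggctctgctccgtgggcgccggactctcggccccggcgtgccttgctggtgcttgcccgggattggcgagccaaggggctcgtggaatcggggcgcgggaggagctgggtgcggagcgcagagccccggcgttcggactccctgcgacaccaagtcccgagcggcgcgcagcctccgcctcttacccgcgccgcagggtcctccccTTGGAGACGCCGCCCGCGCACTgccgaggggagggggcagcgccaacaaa
Col4a4: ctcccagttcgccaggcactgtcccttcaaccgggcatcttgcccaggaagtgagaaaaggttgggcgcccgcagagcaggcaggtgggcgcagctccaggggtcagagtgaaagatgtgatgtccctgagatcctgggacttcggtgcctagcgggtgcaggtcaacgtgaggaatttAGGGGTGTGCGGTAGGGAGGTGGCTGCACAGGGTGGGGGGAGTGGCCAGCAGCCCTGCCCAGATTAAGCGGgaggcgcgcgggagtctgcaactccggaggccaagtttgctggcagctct
Col4a5: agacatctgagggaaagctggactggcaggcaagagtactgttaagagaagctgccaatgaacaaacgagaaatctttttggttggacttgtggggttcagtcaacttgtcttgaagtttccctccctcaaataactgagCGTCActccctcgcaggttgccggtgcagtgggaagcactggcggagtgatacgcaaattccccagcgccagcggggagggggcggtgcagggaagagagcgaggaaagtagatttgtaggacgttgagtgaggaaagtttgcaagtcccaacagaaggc
Col4a6: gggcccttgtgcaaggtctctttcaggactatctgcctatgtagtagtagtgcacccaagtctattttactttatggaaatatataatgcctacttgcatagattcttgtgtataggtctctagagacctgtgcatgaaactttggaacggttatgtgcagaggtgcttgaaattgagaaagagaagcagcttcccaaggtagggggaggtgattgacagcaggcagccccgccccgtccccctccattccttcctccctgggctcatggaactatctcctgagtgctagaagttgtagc

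Since 666-15 inhibits CREB, promoter windows were searched on both strands for the full CREB site TGACGTCA and for its core TGACG, which the full site contains. The RefSeq table held a window for 30 of the 38 chains; Col1a1, Col2a1, Col4a3, Col5a2, Col9a3, Col12a1, Col14a1 and Col26a1 had none. The full site was found in 588 of 32851 windows of all genes (1.79%) and in 1 of the 32 windows of the 30 chains. That window is of Col24a1, where the site starts 7 bases before the start site. The core was found in 20.8% of all windows and in 4 of the 32 windows of the chains, those of Col24a1, Col4a5, Col7a1 and Col11a2. These matches describe letters in a window and say nothing of binding. The Col24a1 window (chr3:145292222-145292521, plus strand) is given with the full site in capitals.
Col24a1: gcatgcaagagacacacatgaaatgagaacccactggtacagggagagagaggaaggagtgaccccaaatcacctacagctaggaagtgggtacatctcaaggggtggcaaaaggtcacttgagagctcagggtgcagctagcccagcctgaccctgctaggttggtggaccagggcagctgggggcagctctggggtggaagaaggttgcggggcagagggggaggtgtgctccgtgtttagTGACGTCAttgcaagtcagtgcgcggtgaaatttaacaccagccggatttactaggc

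**Figure D4:**
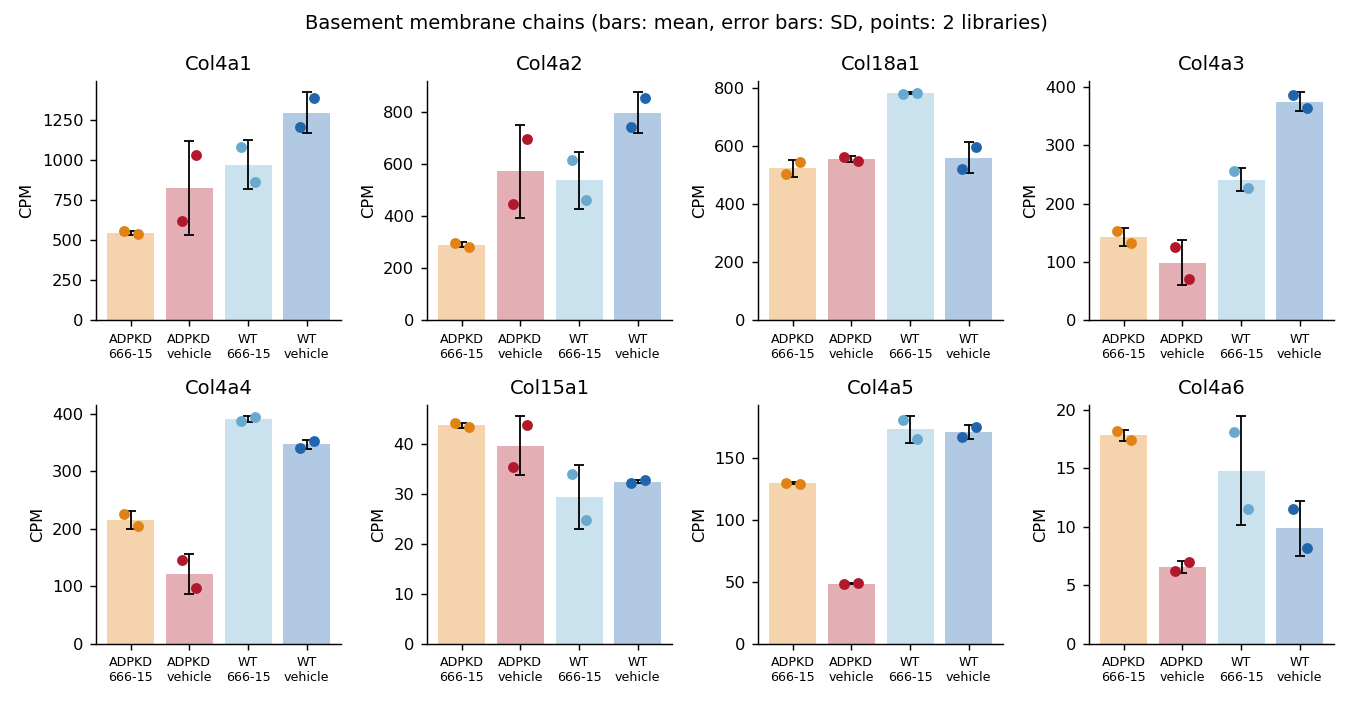
Level (CPM, y axes starting at 0) of the 8 basement membrane chains in the 4 groups (x axes), with bars for the mean, error bars for the SD and points for the 2 libraries. Col4a5 is at 129 and 130.2 CPM in 666-15-treated ADPKD cells, 48.2 and 48.9 CPM in vehicle-treated ADPKD cells and 166 to 181 CPM in the 4 WT libraries.

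Among the other chains, Col10a1, the short-chain collagen of hypertrophic cartilage (chromosome 10, 34389981 to 34397085), had 171 and 177 counts in vehicle-treated ADPKD cells, against 0 and 2 counts in vehicle-treated WT cells. Summed over the libraries and relative to their TMM-scaled sizes it was 171-fold higher. The exact binomial 95% interval was 46.9 to 1416 and covers counting error only. By fitted log2 fold change Col10a1 ranked 6th of the 11846 genes with a mean of at least 5 CPM in either group. It met that minimum only in ADPKD cells (9.24 CPM, against 0.059 CPM in WT cells), so that it could enter the ranking only as higher. Col8a2, a network-forming chain, had 51 and 26 counts, against 0 and 2 counts (37.8-fold, 95% interval 10.1 to 318). Both genes met the count minimum for members only through ADPKD libraries. Each had at most 2 counts in a vehicle-treated WT library. Their fitted log2 fold changes were 6.18 and 3.999 without WT replicate 1. Without WT replicate 2, which leaves the WT group at 0, they were 10.28 and 8.10.

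Col7a1, the anchoring fibril collagen that ties basement membranes to the stroma (chromosome 9, 108953586 to 108984875), was at 35.7 and 37.3 CPM in ADPKD libraries, against 5.88 and 5.61 CPM in WT cells (means 36.5 ± 1.14 and 5.74 ± 0.188, SD, n = 2 each; 2.67 ± 0.27, adjusted p = 5.38e-06). Col12a1, which associates with type I fibrils, was at 112 and 216 CPM, against 27.9 and 32.9 CPM (2.43 ± 0.50, adjusted p = 0.0114). Both ADPKD libraries lay above both WT libraries, although replicate 2 was far higher than replicate 1 for Col12a1 and close to it for Col7a1. The beaded filament chains Col6a1 and Col6a2 were at 12.5 and 22.2 CPM and 9.23 and 16 CPM in ADPKD libraries, against 9.26 and 5.73 CPM and 6.42 and 4.9 CPM in WT cells (1.20 ± 0.29 and 1.15 ± 0.28). Their partner Col6a3 did not pass (-0.15 ± 0.31). Col16a1, a fibril-associated chain, was at 7.52 and 15.9 CPM, against 5.13 and 4.13 CPM (1.33 ± 0.33, adjusted p = 0.00412).

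Col26a1, a collagen known from testis and ovary (chromosome 5, 136741759 to 136883209), went the other way. It was at 0.986 and 1.52 CPM in vehicle-treated ADPKD cells, against 9.11 and 16.4 CPM in vehicle-treated WT cells (-3.34 ± 0.32, adjusted p = 7.42e-06). Of the chains at low level, Col13a1, a transmembrane collagen, had 86 and 98 counts, against 16 and 23 counts (2.19), and Col6a5 had 16 and 2 counts, against 67 and 27 counts (-2.37). Without vehicle-treated ADPKD replicate 2 the calls of Col6a1 (0.71), Col6a2 (0.68), Col16a1 (0.67), Col13a1 (2.03) and Col6a5 (-1.59) were lost, and Col6a5 was at -4.43 without ADPKD replicate 1. Without WT replicate 1 the calls of Col12a1 (2.30, adjusted p = 0.0985), Col13a1 (1.82) and Col6a5 (-1.76) were lost, and without WT replicate 2 that of Col12a1 (2.53, adjusted p = 0.0777).

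**Figure D5:**
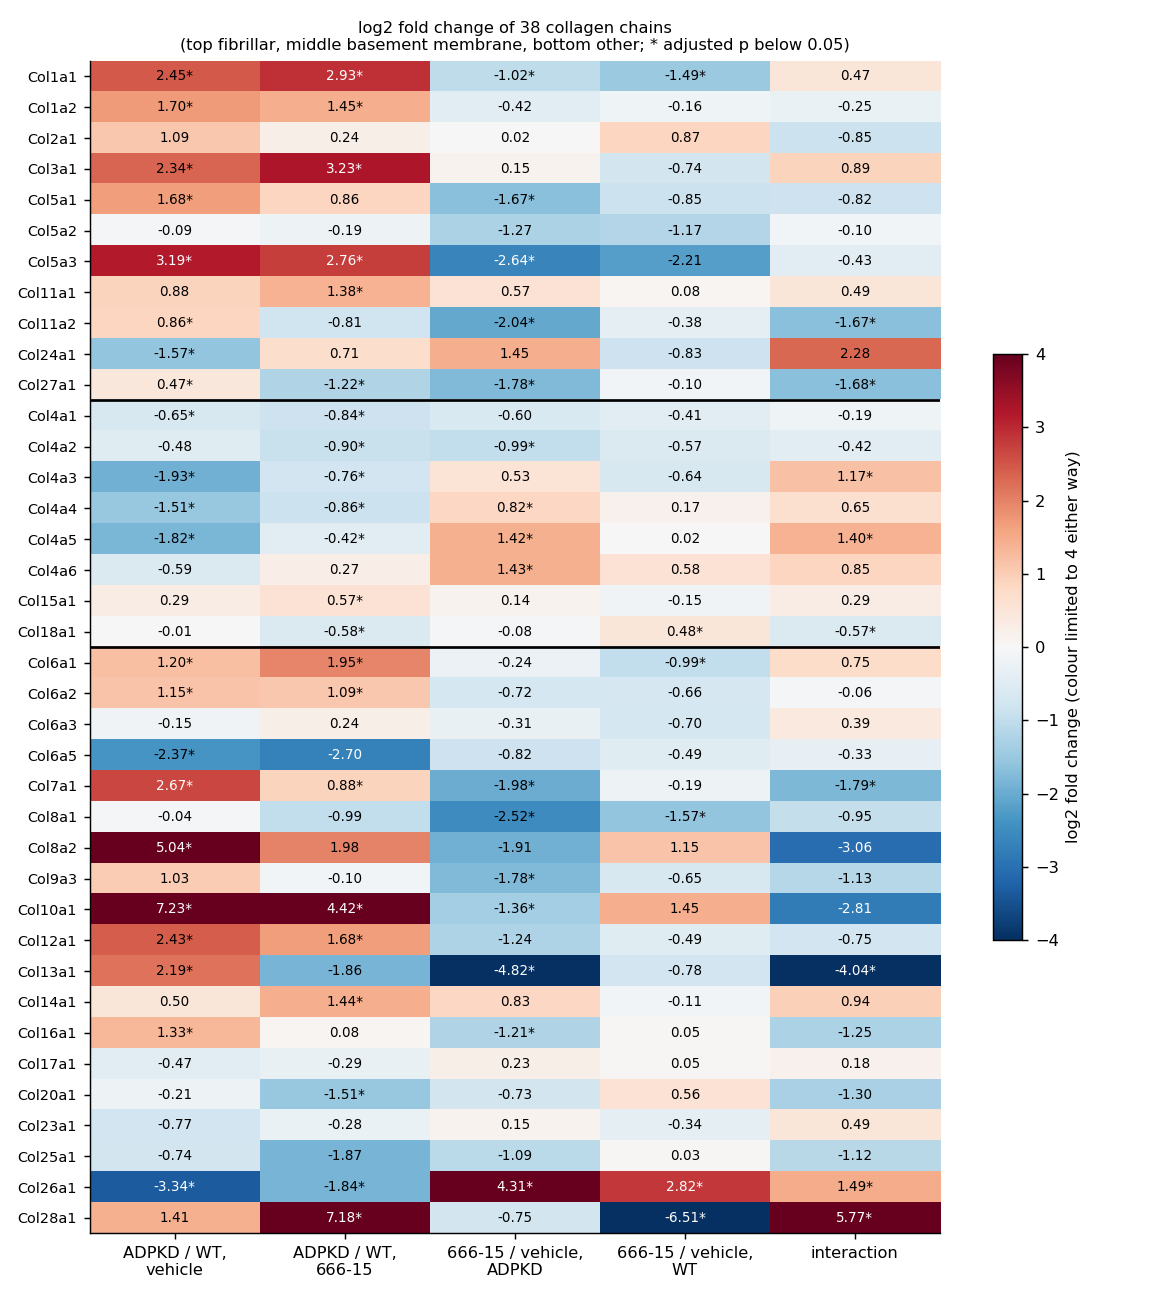
Log2 fold change (colour and printed value) of the 38 chains (rows, by class) in the 4 comparisons of 2 groups and in the interaction (columns), with an asterisk at an edgeR adjusted p below 0.05. With vehicle 7 of 11 fibrillar chains are called higher and 4 of 6 type IV chains lower in ADPKD than in WT cells, and Col4a5 is at -1.82 between the genotypes with vehicle and at 1.42 with 666-15 against vehicle in ADPKD cells. Both Col4a5 values share the vehicle-treated ADPKD libraries.

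The effect of 666-15 in the disease model was asked by setting it against vehicle in ADPKD cells. This comparison and that of the genotypes with vehicle share the vehicle-treated ADPKD libraries. A deviation of those libraries moves both, in opposite directions, so that opposite signs are not independent results. Of the 38 chains 4 rose and 12 fell, with a median of -0.73, while of all genes tested 41.4% were called, 22.3% higher and 19.1% lower, with a median of 0.02. None of the 11 fibrillar chains rose and 5 fell (median -1.02), 3 of 8 basement membrane chains rose and 1 fell (median 0.34), and 1 of 19 other chains rose and 6 fell (median -0.82). At least 2-fold differences were called for 14 chains, 3 higher and 11 lower, against 18.5% of all genes. Of the 16 calls 11 were made in every fit that left out 1 library. With the GC trend removed, 6 chains rose and 8 fell, and the median of the fibrillar chains was -0.56.

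Chains of type IV collagen were among those that rose. Col4a5 was at 130.2 and 129 CPM in 666-15-treated ADPKD cells, against 48.2 and 48.9 CPM in vehicle-treated ADPKD cells (means 129.6 ± 0.803 and 48.6 ± 0.433, SD, n = 2 each; 1.42 ± 0.10, adjusted p = 8.42e-07). Its neighbour Col4a6 was at 18.2 and 17.4 CPM, against 6.23 and 6.95 CPM (1.43 ± 0.24, adjusted p = 0.000529), and Col4a4 at 226 and 205 CPM, against 146 and 96.6 CPM (0.82 ± 0.16, adjusted p = 0.00188). The libraries within each group lay close together for Col4a5 and Col4a6. Col4a3, the head-to-head neighbour of Col4a4, was at 154 and 132 CPM, against 126 and 71.2 CPM and did not pass (0.53 ± 0.24, adjusted p = 0.119); it passed with DESeq2 (0.53, adjusted p = 0.0202) and without vehicle-treated replicate 1 (1.008). The podocyte list had 4 of 8 markers lower and none higher, sums of 0.0095% to 0.0111% of counts with 666-15 against 0.0248% to 0.0265% with vehicle, and none at 0 in either group. Tubule markers mostly moved with the rise: 7 of 8 of the proximal tubule, 5 of 6 of intercalated cells and 3 of 4 of the thick ascending limb were higher and none lower. Their sums with 666-15 were 0.0353% to 0.0368%, 0.0348% to 0.0430% and 0.0300% to 0.0378% of counts. With vehicle they were 0.0043% to 0.00578%, 0.00916% to 0.0117% and 0.0314% to 0.0321%. No marker was at 0, and the sums of the thick ascending limb overlapped between the groups. Of 9 tested principal cell markers 5 were higher and 1 lower. The part of these markers was not tested.

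Col4a2 fell to 296 and 282 CPM with 666-15, against 446 and 698 CPM with vehicle (-0.99 ± 0.22, adjusted p = 0.00921), while Col4a1 was at 555 and 535 CPM, against 619.5 and 1031 CPM and did not pass (-0.60 ± 0.23, adjusted p = 0.0738). The ratio of Col4a1 to Col4a2 per length was 1.83 and 1.85 in 666-15-treated ADPKD cells and 1.36 and 1.44 in vehicle-treated ADPKD cells. The Col4a2 call was lost once the GC trend was removed (-0.40) and without either 666-15 replicate (-1.005, adjusted p = 0.0611, and -0.94, adjusted p = 0.074), and Col4a1 passed under 4 settings, among them DESeq2 (-0.60, adjusted p = 0.00348), and without vehicle-treated replicate 1 (-0.92). Col18a1 and Col15a1 did not pass (-0.08 ± 0.10 and 0.14 ± 0.16).

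The fibrillar chains that fell were Col1a1, Col5a1, Col5a3, Col11a2 and Col27a1. Col27a1 was at 45.7 and 40.9 CPM with 666-15, against 169.8 and 128 CPM with vehicle (-1.78 ± 0.17, adjusted p = 1.63e-05). Col5a1 was at 12 and 10.8 CPM, against 26.3 and 46.3 CPM (-1.67 ± 0.34, adjusted p = 0.00377), Col5a3 at 3.38 and 0.611 CPM, against 8.97 and 16.1 CPM (-2.64 ± 0.58), and Col11a2 at 1.95 and 1.02 CPM, against 6.9 and 5.43 CPM (-2.04 ± 0.37). The drop of Col5a3 was -4.33 without 666-15 replicate 1, -1.88 without replicate 2 and -1.98 with the GC trend removed, and that of Col11a2 -1.26 with the GC trend removed.

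Of the main fibre chains Col1a1 fell. It was at 42.8 and 39.5 CPM with 666-15, against 63.7 and 103 CPM with vehicle (-1.02 ± 0.24, adjusted p = 0.00705). Col1a2 was at 85.5 and 85.9 CPM, against 81.7 and 147 CPM (-0.42 ± 0.28, adjusted p = 0.286), and Col3a1 at 99.2 and 105 CPM, against 77.6 and 107 CPM (0.15 ± 0.25, adjusted p = 0.681), with overlapping groups for both. The Col1a1 call was lost without 666-15 replicate 2 (-0.95, adjusted p = 0.069) and once the GC trend was removed (-0.56, adjusted p = 0.103), and the direction of the uncalled Col1a2 turned without vehicle-treated replicate 2 (0.09), that of the uncalled Col3a1 without vehicle-treated replicate 1 (-0.06). As levels per length, Col3a1 was 2.47 and 2.84 times Col1a1 with 666-15 and 1.30 and 1.11 times Col1a1 with vehicle.

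Of the other chains Col26a1 had the largest rise, and in ADPKD cells it reached a mean of 5 CPM only with 666-15. It was at 22.6 and 27.2 CPM in 666-15-treated ADPKD cells, against 0.986 and 1.52 CPM in vehicle-treated ADPKD cells (means 24.9 ± 3.28 and 1.25 ± 0.378, SD, n = 2 each; 4.31 ± 0.32, adjusted p = 5.97e-06), the 8th highest log2 fold change of 11282 genes with a mean of at least 5 CPM in either group. Col8a1, a network-forming collagen of vessel walls and of the eye (chromosome 16, 57624258 to 57754737), fell to 5.53 and 5.09 CPM, against 19.7 and 41.3 CPM (-2.52 ± 0.38, adjusted p = 0.00114). Col7a1 fell to 11.8 and 6.65 CPM, against 35.7 and 37.3 CPM (-1.98 ± 0.27, adjusted p = 0.000139). Col10a1 was at 4.62 and 2.58 CPM, against 8.87 and 9.61 CPM (-1.36 ± 0.37), and Col16a1 at 4.36 and 5.77 CPM, against 7.52 and 15.9 CPM (-1.21 ± 0.33). Chains at low level fell too: Col13a1 had 5 and 0 counts, against 86 and 98 counts, and Col9a3, a fibril-associated chain of cartilage, had 19 and 11 counts, against 89 and 41 counts.

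The calls of Col10a1 (-0.99) and Col9a3 (-1.45) were lost without 666-15 replicate 2, that of Col16a1 without 666-15 replicate 1 (-1.005), without vehicle-treated replicate 2 (-0.55) and with the GC trend removed (-0.56), and that of Col9a3 also without vehicle-treated replicate 1 (-1.15) and with the GC trend removed. Col8a1 was at -1.87 without vehicle-treated replicate 2 and Col7a1 at -1.31 with the GC trend removed, and Col13a1, fitted at -4.82, at -3.87 and -9.39 without 666-15 replicate 2 and replicate 1. Stromal and endothelial markers moved with these falls. Of 14 stromal markers 1 rose and 10 fell, with sums of 0.0249% to 0.0258% of counts with 666-15, against 0.0398% to 0.0713% with vehicle, and all 10 endothelial markers fell, with sums of 0.0295% to 0.038%, against 0.108% to 0.134%. None of either list was at 0 counts in both libraries of a group, and their part in the collagen result was not tested.

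The same agent was set against vehicle in WT cells. There 2 of the 38 chains rose and 4 fell, with a median of -0.36, against 25.5% of all genes called, 13.9% higher and 11.6% lower, with a median of -0.01. At least 2-fold differences were called for 4 chains, 1 higher and 3 lower, against 9.63% of all genes. One fibrillar chain fell (median of the 11 chains -0.74), 1 basement membrane chain rose (median of the 8 chains -0.06), and of the other chains 1 rose and 3 fell (median of the 19 chains -0.34). DESeq2 called 13 chains and so did edgeR without a filter on low counts, and 2 of the 6 calls were made in every fit that left out 1 library.

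Col26a1 was again the chain with the largest rise, at 94.2 and 84.6 CPM in 666-15-treated WT cells, against 9.11 and 16.4 CPM in vehicle-treated WT cells (means 89.4 ± 6.82 and 12.8 ± 5.17, SD, n = 2 each; 2.82 ± 0.25, adjusted p = 1.92e-05). It ranked 24th of 11491 genes with a mean of at least 5 CPM in either group. Markers of principal cells rose in the same comparison in all 9 tested cases of 10, with sums of 0.602% to 0.609% of counts with 666-15, against 0.109% to 0.148% with vehicle and none at 0; in ADPKD cells, where Col26a1 also rose, the sums were 0.193% to 0.228% with 666-15 and 0.152% to 0.187% with vehicle. Other lists moved in WT cells too. Markers of intercalated cells (4 of 6) and macrophages (6 of 8) were higher with 666-15, with none lower. Markers of the proximal tubule (6 of 8) and thick ascending limb (3 of 4) were lower, with none higher. Intercalated cell sums were 0.101% to 0.143% with 666-15, against 0.0549% to 0.0559% with vehicle. Proximal tubule sums were 0.472% to 0.546%, against 1.21% to 1.44%. The part of all these markers in the rise of Col26a1 was not tested.

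Col18a1 (chromosome 10, 77052178 to 77166548) was at 780.1 and 783 CPM with 666-15, against 521 and 597 CPM with vehicle in WT cells (0.48 ± 0.10, adjusted p = 0.00233). Col1a1 fell to 5.9 and 4.93 CPM, against 18.2 and 12.2 CPM (-1.49 ± 0.28, adjusted p = 0.00357), Col8a1 to 9.01 and 12.1 CPM, against 25.8 and 37 CPM (-1.57 ± 0.35, adjusted p = 0.0134), and Col6a1 to 3.98 and 3.61 CPM, against 9.26 and 5.73 CPM (-0.99 ± 0.32, adjusted p = 0.0405). Col28a1, a chain known from peripheral nerve, had 0 counts in both 666-15 libraries, against 17 and 8 counts with vehicle, which makes it at least 6.96-fold lower with 666-15 (floor of 3 counts, summed over the group), while the exact binomial 95% interval of the ratio of 666-15 to vehicle, which counts the error of both sums, reaches 0.190. The calls of Col1a1 (-1.63, adjusted p = 0.0561, and -1.37, adjusted p = 0.0851), Col8a1 (-1.37 and -1.80) and Col6a1 (-1.06 and -0.93) were lost without 666-15 replicate 1 or replicate 2. Without vehicle-treated replicate 1 those of Col18a1 (0.39, adjusted p = 0.0574) and Col6a1 (-0.60) were lost, and without vehicle-treated replicate 2 that of Col8a1 (-1.29).

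No type IV chain passed in WT cells by the test as stated, although several did under other settings. Col4a5 was at 181 and 166 CPM with 666-15, against 167 and 175 CPM with vehicle (0.02 ± 0.09, adjusted p = 0.909), and Col4a4 at 387 and 394 CPM, against 341 and 353 CPM (0.17 ± 0.15, adjusted p = 0.462). Col4a3 was at 255 and 227 CPM, against 386 and 363 CPM (-0.64 ± 0.24, adjusted p = 0.0978), but passed as lower with DESeq2 (-0.70, adjusted p = 0.00201), no low-count filter (-0.64, adjusted p = 5.7e-06), the 2 groups alone (-0.64, adjusted p = 0.00429), a filter of 5 CPM (-0.74, adjusted p = 0.0426) and a fit that was not robust (-0.64, adjusted p = 0.0379). Col4a1 was at 1080.2 and 864 CPM, against 1205 and 1385 CPM (-0.41 ± 0.23, adjusted p = 0.239), and Col4a2 at 615 and 461 CPM, against 742 and 853 CPM (-0.57 ± 0.22, adjusted p = 0.101), and both passed as lower with DESeq2 (-0.47, adjusted p = 0.0335, and -0.63, adjusted p = 0.00229), Col4a2 also under 4 further settings. The X-linked Col4a6 was at 18.1 and 11.5 CPM, against 11.5 and 8.21 CPM (0.58 ± 0.24, adjusted p = 0.0948), and at 0.87, adjusted p = 0.0175, without the female library. Col1a2 and Col3a1 did not pass either (-0.16 ± 0.30 and -0.74 ± 0.29); Col3a1 passed with DESeq2 (-0.80, adjusted p = 0.00465) and without vehicle-treated replicate 2 (-1.11).

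Whether the genotypes still differed under the inhibitor was read from the 2 groups treated with 666-15. Of the 38 chains 13 were higher and 9 lower in ADPKD cells, with a median of 0.16, against 46.3% of all genes called, 21.8% higher and 24.5% lower, with a median of -0.03. Fibrillar chains were higher in 5 cases and lower in 1 (median 0.86), basement membrane chains higher in 1 and lower in 6 (median -0.67), and other chains higher in 7 and lower in 2 (median 0.08). At least 2-fold differences were called for 14 chains, 11 higher and 3 lower, against 22.4% of all genes. With the GC trend removed 14 chains were higher and 5 lower. The total of 22 fell to 14 without 666-15-treated WT replicate 2, the female library, or without 666-15-treated ADPKD replicate 1, and 11 of the 22 calls were made in every fit that left out 1 library.

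Col3a1 had 1 of the clearest differences, at 99.2 and 105 CPM in 666-15-treated ADPKD cells, against 10.1 and 11.7 CPM in 666-15-treated WT cells (means 102 ± 4.16 and 10.9 ± 1.15, SD, n = 2 each; 3.23 ± 0.29, adjusted p = 4.86e-05). Col1a1 was at 42.8 and 39.5 CPM, against 5.9 and 4.93 CPM (2.93 ± 0.28, adjusted p = 2.21e-05), and Col1a2 at 85.5 and 85.9 CPM, against 36 and 26.7 CPM (1.45 ± 0.30, adjusted p = 0.0062). Col6a1 was at 15.6 and 13.7 CPM, against 3.98 and 3.61 CPM (1.95 ± 0.32, adjusted p = 0.000354), and Col6a2 at 8.2 and 7.13 CPM, against 3.91 and 3.29 CPM (1.09 ± 0.30). Stromal markers again differed with these chains: 7 of 14 were higher and 3 lower in the ADPKD cells. Their sums, however, were 0.0249% to 0.0258% of counts in ADPKD and 0.019% to 0.0247% in WT cells, none was at 0 in either group, and their part was not tested. Col27a1, by contrast, was lower in ADPKD cells, at 45.7 and 40.9 CPM, against 108 and 93.8 CPM (-1.22 ± 0.16, adjusted p = 0.000121).

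Of the 6 type IV chains 5 were lower in ADPKD cells. Col4a4 was at 226 and 205 CPM, against 387 and 394 CPM (-0.86 ± 0.16, adjusted p = 0.00108), and Col4a5 at 130.2 and 129 CPM, against 181 and 166 CPM (-0.42 ± 0.09, adjusted p = 0.00263). Col4a1 was at 555 and 535 CPM, against 1080.2 and 864 CPM (-0.84 ± 0.23, adjusted p = 0.0207), Col4a2 at 296 and 282 CPM, against 615 and 461 CPM (-0.90 ± 0.22, adjusted p = 0.0121), and Col4a3 at 154 and 132 CPM, against 255 and 227 CPM (-0.76 ± 0.24, adjusted p = 0.0367). Col4a6 did not pass (18.2 and 17.4 CPM, against 18.1 and 11.5 CPM; 0.27 ± 0.23, adjusted p = 0.376), and its direction turned without the female library (-0.01). Col18a1 was at 503 and 544 CPM, against 780.1 and 783 CPM (-0.58 ± 0.10, adjusted p = 0.000312), whereas Col15a1 was at 44.2 and 43.4 CPM, against 34 and 24.9 CPM (0.57 ± 0.16, adjusted p = 0.0101). All 8 podocyte markers were lower as well, with sums of 0.0095% to 0.0111% of counts in ADPKD and 0.0619% to 0.110% in WT cells and none at 0. Lower too were 9 of 10 endothelial markers, 8 of 8 of the proximal tubule, 5 of 6 of intercalated cells, 4 of 4 of the thick ascending limb, 7 of 9 tested of principal cells and 6 of 10 tested of smooth muscle and pericytes, with none higher in any of these lists. Of the 11 smooth muscle and pericyte markers 1 was at 0 in both ADPKD libraries, and their sums were 0.0153% to 0.0211% in ADPKD and 0.0271% to 0.0419% in WT cells. Endothelial sums were 0.0295% to 0.0380% of counts in ADPKD and 0.0763% to 0.127% in WT cells, and those of the proximal tubule 0.0353% to 0.0368% and 0.472% to 0.546%. The part of these markers was not tested. With the GC trend removed the calls of Col18a1 (-0.24, adjusted p = 0.0732), Col4a1 (-0.54), Col4a2 (-0.55) and Col4a3 (-0.64) were lost. Those of Col4a1 and Col4a3 were also lost without any 1 of the 4 libraries (-0.98 to -0.67, and -0.87 to -0.65), that of Col4a2 without WT replicate 1 (-0.67) or either ADPKD replicate (-0.93 and -0.86), and that of Col15a1 without WT replicate 2 (0.38) or either ADPKD replicate (0.56 and 0.58).

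Of the other chains with 666-15, Col26a1 was at 22.6 and 27.2 CPM in ADPKD libraries, against 94.2 and 84.6 CPM in WT cells (-1.84 ± 0.23, adjusted p = 0.000101). Col12a1 was at 69.3 and 69.4 CPM, against 30.5 and 12.9 CPM (1.68 ± 0.51, adjusted p = 0.049), Col7a1 at 11.8 and 6.65 CPM, against 6.29 and 3.8 CPM (0.88 ± 0.29), and Col14a1, a fibril-associated chain, at 7.94 and 11.5 CPM, against 3.11 and 4.05 CPM (1.44 ± 0.45). Col10a1 had 71 and 38 counts, against 2 and 3 counts, a 22.4-fold difference with a counting interval of 9.30 to 70.3. Col28a1 had 21 and 11 counts, against 0 in both WT libraries, which is at least 10.95-fold higher by the same floor, while the exact binomial 95% interval begins at 8.40-fold. At low level, Col11a1 (1.38) and Col5a3 (2.76) were higher and Col20a1 (-1.51) lower in ADPKD cells. Without WT replicate 2 the calls of Col1a2 (1.26), Col6a2 (0.98), Col7a1 (0.57), Col11a1 (0.98), Col12a1 (1.19), Col14a1 (1.65) and Col5a3 (3.31) were lost, and without WT replicate 1 those of Col14a1 (1.26) and Col5a3 (2.38), while Col12a1 was then at 2.42. Col12a1 also lost its call with no low-count filter (1.67, adjusted p = 0.142) and when the trend with length was taken out (1.46, adjusted p = 0.0797). Without ADPKD replicate 1 those of Col6a2 (0.99), Col7a1 (0.40), Col11a1 (1.47), Col12a1 (1.68) and Col5a3 (1.06) were lost, and without ADPKD replicate 2 those of Col11a1 (1.29), Col12a1 (1.67) and Col14a1 (1.14), while Col5a3 was then at 3.51.

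Whether the response to 666-15 differed between the genotypes was tested with the interaction, the log2 fold change in ADPKD cells minus that in WT cells. Of the 38 chains 4 had a higher and 5 a lower response in ADPKD cells, with a median of -0.22, against 26.6% of all genes called, 13.6% higher and 13.0% lower, with a median of -0.02. Of the fibrillar chains 2 were lower, and 2 basement membrane chains were higher and 1 lower, and 2 other chains were higher and 2 lower. A difference of at least 2-fold was called for 8 chains, 4 higher and 4 lower, against 14.7% of all genes, and with the GC trend removed 7 chains were higher and 3 lower. Col4a5 showed the smallest p, with a response of 1.42 in ADPKD cells and 0.02 in WT cells (difference 1.40 ± 0.13, adjusted p = 1.83e-05). Leaving out either 666-15-treated WT library, 1 of which was female, kept this call, and over all 8 fits without 1 library the difference ranged from 1.36 to 1.48. Col27a1 had -1.78 in ADPKD and -0.10 in WT cells (-1.68 ± 0.23, adjusted p = 0.000384), and Col7a1 -1.98 and -0.19 (-1.79 ± 0.40, adjusted p = 0.00621). These 3 were the chains called in every fit that left out 1 library. Col4a4 missed the threshold (0.65 ± 0.22, adjusted p = 0.0508) and passed with DESeq2 (0.71, adjusted p = 0.00971), RLE scaling (0.70, adjusted p = 0.0418) and other settings.

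The other genes of collagen metabolism were taken from 4 lists: chain modification, folding and secretion (21 genes), propeptide cleavage, cross-linking and fibril assembly (18 tested of 19), collagen receptors (9 tested of 10) and collagen degradation (7 tested of 8). Between the genotypes with vehicle 66.7%, 72.2%, 55.6% and 57.1% of their tested genes were called, beside the 56.4% of all genes, and with 666-15 in ADPKD cells 47.6%, 77.8%, 44.4% and 42.9%, beside 41.4%. The receptor and degradation lists were thus near the background in both comparisons. Of the first list 6 were higher and 8 lower in vehicle-treated ADPKD cells against vehicle-treated WT cells (median -0.08). Creb3l1, a transcription factor that drives type I collagen genes in bone and responds to stress of the endoplasmic reticulum, was at 54.8 and 47 CPM in ADPKD libraries, against 8.96 and 9.86 CPM in WT cells (2.44 ± 0.15, adjusted p = 3.23e-08). P3h2, which hydroxylates prolines of type IV collagen, was at 75.2 and 61.8 CPM, against 191 and 195 CPM (-1.495 ± 0.11, adjusted p = 1.73e-07). With 666-15 in ADPKD cells 2 genes of this list rose and 8 fell (median -0.27), among them Plod1, a lysyl hydroxylase, at 18.5 and 18.4 CPM, against 44.4 and 45.2 CPM with vehicle (-1.28 ± 0.13, adjusted p = 1.31e-05), and Serpinh1, the collagen chaperone HSP47, at 169 and 184 CPM, against 291 and 288 CPM (-0.72 ± 0.11, adjusted p = 0.000231). In WT cells 1 rose and 4 fell with 666-15 (median -0.04), or 23.8% called, near the 25.5% of all genes. Creb3l1 was the one that rose there (1.001 ± 0.15, adjusted p = 0.000403), whereas in ADPKD cells it fell (-0.85 ± 0.14, adjusted p = 0.000495), and the responses differed between the genotypes (-1.85 ± 0.21, adjusted p = 6.31e-05).

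Genes of fibril assembly were mostly higher in vehicle-treated ADPKD cells, with 10 higher and 3 lower than in vehicle-treated WT cells (median 1.40), and mostly lower with 666-15 in ADPKD cells, with 2 higher and 12 lower than with vehicle (median -1.19). Both counts share the vehicle-treated ADPKD libraries. Bmp1, the enzyme that removes the C-propeptide of fibrillar collagens, was at 48.7 and 44.1 CPM in 666-15-treated ADPKD cells and 132 and 109 CPM in vehicle-treated ADPKD cells, against 25.4 and 21.7 CPM in vehicle-treated WT cells (-1.37 ± 0.17, adjusted p = 7.56e-05 with 666-15, and 2.35 ± 0.18, adjusted p = 3.27e-07 between genotypes). Lox, the lysyl oxidase that cross-links fibrils, was at 37.6 and 29 CPM, 60.5 and 87.9 CPM and 14.1 and 9.98 CPM in the same groups (-1.15 ± 0.21 and 2.62 ± 0.22). In WT cells 1 gene rose and 2 fell with 666-15 (median -0.41), or 16.7% called, beside 25.5% of all genes. Between the 666-15-treated genotypes 8 were higher and 3 lower in ADPKD cells (median 0.46), or 61.1% called, beside 46.3% of all genes. The decorin gene Dcn and the lumican gene Lum stand both in this list and among the stromal markers.

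Of the receptors 4 were higher and 1 lower in vehicle-treated ADPKD cells against vehicle-treated WT cells (median 0.60). Itga2, the integrin subunit that binds fibrillar collagen, was at 307 and 315 CPM in ADPKD libraries, against 22.5 and 16.7 CPM in WT cells (3.98 ± 0.15, adjusted p = 3.71e-10). Itga1, whose integrin prefers type IV collagen, was at 36.6 and 40.2 CPM, against 120.4 and 118 CPM (-1.63 ± 0.11, adjusted p = 4.2e-08). With 666-15 in ADPKD cells 1 receptor rose and 3 fell (median -0.29): Itga1 rose to 68.6 and 64.3 CPM, against 36.6 and 40.2 CPM with vehicle (0.79 ± 0.11, adjusted p = 9.26e-05), and the discoidin receptor Ddr2 fell (-1.32 ± 0.32). In WT cells 1 rose and 2 fell (median -0.09), with Itga1 at -0.58, or 33.3% called, beside 25.5% of all genes. Among degrading enzymes 3 were higher and 1 lower in vehicle-treated ADPKD cells (median 0.41). Cathepsin K (Ctsk), a collagen-cleaving protease, was at 5.27 and 4.55 CPM with 666-15 and 20.1 and 33.4 CPM with vehicle in ADPKD libraries, against 1.99 and 2.48 CPM in vehicle-treated WT cells (-2.44 ± 0.27 with 666-15, and 3.58 ± 0.29 between genotypes). The membrane collagenase Mmp14 differed between the genotypes (2.37 ± 0.15 with vehicle) and, with 246 and 259.9 CPM with 666-15 and 254 and 272 CPM with vehicle, did not pass in ADPKD cells (-0.06 ± 0.14). With 666-15 in ADPKD cells 1 of these enzymes rose and 2 fell (median -0.82), and in WT cells 1 rose and 2 fell (median -0.14). The WT calls were 42.9% of the 7 tested, beside 25.5% of all genes.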

How the data were processed

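RNA-seq of DBA-positive mouse kidney cells gave 8 libraries in 4 groups of 2. The submitters' processing notes name the build mm10, the aligner HISAT2 2.1.0, the counter featureCounts 1.6.0 and DESeq2. Per the labels' protocols, RNA was oligo-dT selected. The extract protocol mentions both DBA-positive cells and whole kidney. The source name and design text give DBA-positive cells, which was followed here. The authors' gene annotation, use of strand and handling of reads with several alignments are not given in the sources used here. Raw counts per gene were deposited, and its vehicle columns were matched to samples by elimination. Exons of Col4a3 and Col9a3 overlap a gene on the opposite strand by 5.65% and 6.07% of their bases, whose reads cannot be told apart if strand was not used.

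The analysis used edgeR 4.0.16 under R 4.3.3: filterByExpr (minimum count 10, minimum total 15), TMM scaling, and 1 robust quasi-likelihood model of the 4 groups with 4 residual degrees of freedom, fitted to 17440 genes. Tests were two-sided and adjusted by the Benjamini-Hochberg method over all genes within each comparison. Levels are CPM, with mean ± SD over 2 libraries, and fold changes are log2 ± SE. Length and GC content are those of the longest GENCODE M21 transcript (GRCm38), available for 98.9% of genes tested, and 97.0% of symbols matched. Intervals and the floor of 3 counts cover counting error only. Promoters are from RefSeq.

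Members, classes, lists and markers were chosen with earlier results of these data known. Any member could be named, with values per library where it passed at a mean of at least 5 CPM, and for type IV, Col1a1, Col1a2 and Col3a1; of a list, up to 6 genes by smallest p. Alternatives were RLE scaling, no filter, at least 5 CPM in 2 libraries, a fit that is not robust, a block for replicate number, the 2 groups alone, DESeq2 1.42.0, a 2-fold minimum, leaving out each library, and removing a GC or length trend (lowess, span 0.3). The model was also run on simulated counts with the same dispersion for every gene and few changed genes. These data differ from that setting, so the run is no check on the calls made here. The 2 libraries of a group differed beyond counting noise in each group. Figures were drawn with matplotlib 3.10.9.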

Additional observations from a re-analysis of the deposited data

Results flagged for a closer look

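For 9 chains the response to 666-15 differed between the genotypes by the interaction test of edgeR (log2 fold change in ADPKD cells minus that in WT cells). Besides Col4a5 (1.40), Col27a1 (-1.68) and Col7a1 (-1.79; -1.09 with the GC trend removed), these were Col18a1, Col26a1, Col28a1, Col13a1, Col11a2 and Col4a3.

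The Col18a1 response was -0.08 in ADPKD cells and 0.48 in WT cells (difference -0.57 ± 0.14, adjusted p = 0.00833). It was lost without 666-15-treated ADPKD replicate 1 (-0.49) or vehicle-treated WT replicate 1 (-0.45) and turned to 0.07 with the GC trend removed. Col26a1 rose in both genotypes, by 4.31 in ADPKD and 2.82 in WT cells (difference 1.49 ± 0.41, adjusted p = 0.0213). Its call was lost without vehicle-treated ADPKD replicate 1 (1.22), 666-15-treated ADPKD replicate 2 (1.37) or 666-15-treated WT replicate 1 or 2 (1.59 and 1.44), and it was 2.11 with the GC trend removed. Col4a3 had 0.53 in ADPKD and -0.64 in WT cells (difference 1.17 ± 0.34, adjusted p = 0.042), lost in 6 of 8 fits that left out 1 library (all but those without a vehicle-treated ADPKD library) and with the length trend removed (0.97).

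At low level, Col28a1 had a fitted difference of 5.77 ± 1.70, adjusted p = 0.0264, which depends on 0 counts in both 666-15-treated WT libraries and is no measure of size, Col13a1 of -4.04 ± 1.19, adjusted p = 0.0273, and Col11a2 of -1.67 ± 0.51, adjusted p = 0.0297. Each was lost without vehicle-treated WT replicate 1 and in 3 or more of the other 7 such fits, and Col11a2 also with DESeq2 and with the GC trend removed (-0.90).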

How the results depend on the processing

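The number of chains called stayed within 1.5 times its value under most alternatives. With vehicle, ADPKD against WT gave 22 chains, 15 to 20 without 1 library and 18 to 23 under the other settings. In ADPKD cells 666-15 gave 16, 12 to 19 without 1 library and 14 to 20 otherwise. In WT cells it gave 6, 4 to 6 without 1 library, but 13 with no filter on low counts and 13 with DESeq2. Between genotypes with 666-15 there were 22, 14 to 20 without 1 library and 14 with a 2-fold minimum. The interaction gave 9, 4 to 12 without 1 library and 16 with no filter on low counts. Leaving out a library leaves 1 group with 1 sample, assumed to vary like the other groups, and lowers the degrees of freedom; otherwise the cause of a lost call was not tested. The replicate numbers did not pair the libraries: deviations of same-numbered libraries correlated at -0.0364 to 0.0859 between groups over 12912 genes, and a fit with a replicate block called 20, 17, 6, 23 and 11 chains in these 5 comparisons, of which 20, 16, 5, 21 and 9 were among those called without it. Not called with the block were Col4a1 and Col11a2 between genotypes with vehicle (adjusted p = 0.0605 and 0.0537), Col6a1 with 666-15 in WT cells (0.0531) and Col12a1 between genotypes with 666-15 (0.11).

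Of 1392 values for single chains under an alternative 1183 kept direction and side of the threshold, and 19 turned direction. All but Col18a1 in the interaction (0.067 with the GC trend removed) were uncalled. For 666-15 in ADPKD cells these were Col1a2 without vehicle-treated replicate 2 (0.087) and Col3a1 without vehicle-treated replicate 1 (-0.065) or with the length trend removed (-0.0096). For 666-15 in WT cells they were Col1a2 without vehicle-treated replicate 1 (0.033) or 666-15 replicate 2 (0.03) and Col4a5 with RLE scaling (-0.044), a filter of 5 CPM (-0.085), the GC (-0.033) or length trend removed (-0.060), DESeq2 (-0.042), and without vehicle-treated replicate 1 (-0.02) or 666-15 replicate 1 (-0.048). Between genotypes with 666-15 Col4a6 turned without WT replicate 2 (-0.013). In the interaction Col1a2 (0.12), Col4a1 (0.28) and Col4a2 (0.21) turned with the GC trend removed, and Col1a2 (0.26) and Col4a1 (0.25) without vehicle-treated ADPKD replicate 2. Over the fits without 1 library the ranges were -0.77 to 0.087 for Col1a2 and -0.065 to 0.41 for Col3a1 with 666-15 in ADPKD cells, -0.40 to 0.033 for Col1a2 and -0.048 to 0.076 for Col4a5 in WT cells, -0.013 to 0.63 for Col4a6 between genotypes with 666-15, and -0.60 to 0.26 for Col1a2 and -0.50 to 0.25 for Col4a1 in the interaction.

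Of 204 class medians under an alternative 22 moved by more than the spread over libraries, and 5 of these turned sign. For the other chains with 666-15 in WT cells (-0.34) the median was 0.047 without vehicle-treated replicate 1 and 0.0048 without 666-15 replicate 2. In the interaction that of the fibrillar chains (-0.25) was 0.12 with the GC trend removed and 0.26 without vehicle-treated ADPKD replicate 2, and that of the other chains (-0.75) was 0.084 without 666-15-treated WT replicate 1. Those that kept their sign included the fibrillar chains with 666-15 in ADPKD cells (-0.56 with the GC trend removed, -1.55 with a filter of 5 CPM) and the other chains between genotypes with 666-15 (0.999 with that filter).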
